A study of Mus musculus with 12 samples.

Results

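Solute carrier (SLC) genes encode membrane proteins that move small molecules into and out of cells and organelles. The set described here comprised the genes whose symbol begins with Slc, a family number, the letter a and a member number, and whose mean raw read count over the 6 libraries of high-fat-diet mice with and without vehicle was at least 20. Of 26015 genes in the complete deposited table, 306 had such a symbol. The 47 genes of the mitochondrial Slc25a family, Slc13a5 and Slc27a5 were left out by rule, 94 more lay below the count floor, and 163 genes remained. The members were thus chosen by their mean raw count, that is, by level of expression, without regard to a difference between groups. Just inside the floor were Slc9a7 (mean raw count 20.7), Slc24a3 (21), Slc28a2 (22.7) and Slc1a5 (23.2), and just outside were Slc13a4 (18.3), Slc2a3 (18.0), Slc16a3 (17.8) and Slc39a7 (17.7). Of the 163 members, 160 reached the floor in both groups of libraries and 3 (Slc10a6, Slc24a3 and Slc9a7) through the uninjected group only, where their raw counts were the higher. The floor used no chow or PCN library, so a gene at low counts in these 6 libraries could not enter, whatever its level in chow or PCN. Among the genes below the floor, Slc28a1 and Slc13a4 were called in at least 1 of the authors' comparisons. Genes of the family whose symbol has another letter, such as Slc35b or the Slco genes, were not members.

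The liver takes up bile acids, amino acids, sugars, lactate, fatty acids, vitamins, metals and drugs from the blood. It releases glucose, ketone bodies and other products into the circulation. Carriers of the plasma membrane set which of these exchanges a hepatocyte can make, and others work in the membranes of lysosomes, the endoplasmic reticulum or vesicles. Most act by facilitated diffusion, exchange, or cotransport with sodium or protons, and several need a second protein chain or a scaffold at the membrane.

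Liver RNA came from C57BL/6N mice that entered the study at 6 weeks of age and ate their diet for 15 weeks. The 4 groups of 3 samples were regular chow without injection (replicates 8, 17 and 19), high-fat diet (HFD) without injection (4, 30 and 38), HFD with vehicle, which was 30% DMSO in corn oil (15, 23 and 55), and HFD with pregnenolone 16α-carbonitrile (PCN) at 50 mg/kg (5, 11 and 27). PCN is a steroid ligand of the pregnane X receptor of rodents, which controls genes of drug handling. It or vehicle was injected into the peritoneum daily for 4 days. No chow group was injected, so diet and injection both differ between chow and either injected group, and the labels give no sex. PCN and the injection of vehicle likewise both differ between PCN and uninjected HFD, and cannot be told apart in that comparison.

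Summed counts of the 6 libraries in the complete table ran from 7466378 (HFD replicate 38) to 38161486 (HFD replicate 4). Hepatocyte markers were abundant in these 6 libraries. Of 8 hepatocyte genes 7 were measured, with a summed normalized count of 1.37e+06 to 1.85e+06 per HFD library and 1.16e+06 to 1.79e+06 per vehicle library. Markers of other cell types were expressed as well and are given below. The libraries of the uninjected and vehicle groups did not separate cleanly. Over the 12426 genes at the count floor, vehicle replicate 23 had a median Pearson correlation across genes of 0.971 with its own group and 0.986 with the uninjected libraries, and over the 163 members the values were 0.975 and 0.977. HFD replicate 30 also lay closer to the vehicle libraries over the members (0.978 against 0.972 within its group). These correlations are across genes, which are not independent. In bulk tissue, fewer cells of a type and less RNA per cell cannot be told apart.

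Counts in chow and PCN libraries were given only for genes that the authors called in a comparison with that group. Of the 163 members, 60 had counts for chow, 55 for PCN and 51 for each of the 12 libraries. These 51 were listed because they had differed, so their number and spread say nothing of the 163 as a whole. Values below are normalized read counts, that is, raw counts divided by the size factor of the library. A fold is the ratio of group means, and rose and fell refer to an adjusted p under 0.05 in the authors' deposited DESeq2 tables. The labels do not say whether the 3 samples of a group were separate animals, so p-values measure the spread between these samples, which may be technical. The 6 comparisons share libraries and are not independent of each other.

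Between HFD and chow, 26 members rose and 7 fell, which was 20.2% of the members, where 9.44% of all 12426 genes at the floor were called (5.41% higher, 4.03% lower). Between PCN and vehicle, 2 members rose and 6 fell, or 4.91%, beside 3.33% of genes at the floor (2.02% higher, 1.31% lower). Between PCN and uninjected HFD, 9 rose and 12 fell, or 12.9%, beside 6.1% (3.65% higher, 2.45% lower). Between vehicle and chow, 17 rose and 9 fell, or 16.0%, beside 6.16% (3.44% higher, 2.72% lower). Between PCN and chow, 28 rose and 17 fell, or 27.6%, beside 15.2% (8.09% higher, 7.15% lower). Between vehicle and uninjected HFD, the authors listed 2 members higher and 6 lower, or 4.91%, beside 1.63% (0.587% higher, 1.05% lower). In all, 64 members were called in at least 1 comparison and 99 in none. The shares were not tested against the background. Without the 3 members that reached the floor through uninjected HFD only, a choice made after seeing the data, 25 rose and 7 fell between HFD and chow, 28 rose and 16 fell between PCN and chow, and the other counts were the same.

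In a second test, edgeR's quasi-likelihood test on the counts of the listed genes with Benjamini-Hochberg adjustment, fewer members passed. It passed 8 of the 33 between HFD and chow, 4 of the 21 between PCN and HFD, 6 of the 26 between vehicle and chow, and 25 of the 45 between PCN and chow. Of the 8 between PCN and vehicle it passed 0. All 8 had an unadjusted p under 0.05, which adds nothing, since they were listed for a low p on the same counts. The share of all genes at the floor that it passed was 0.7%, 0.958%, 0.604%, 4.21% and 0.0966%, in that order. The 8 between HFD and chow were Slc13a3, Slc16a5, Slc16a6, Slc16a11, Slc22a27, Slc22a29, Slc46a3 and Slc5a6. Between PCN and HFD the 4 were Slc17a4, Slc17a8, Slc22a26 and Slc22a29, and between vehicle and chow the 6 were Slc13a3, Slc16a1, Slc16a5, Slc22a26, Slc30a10 and Slc46a3.

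**Figure D1:**
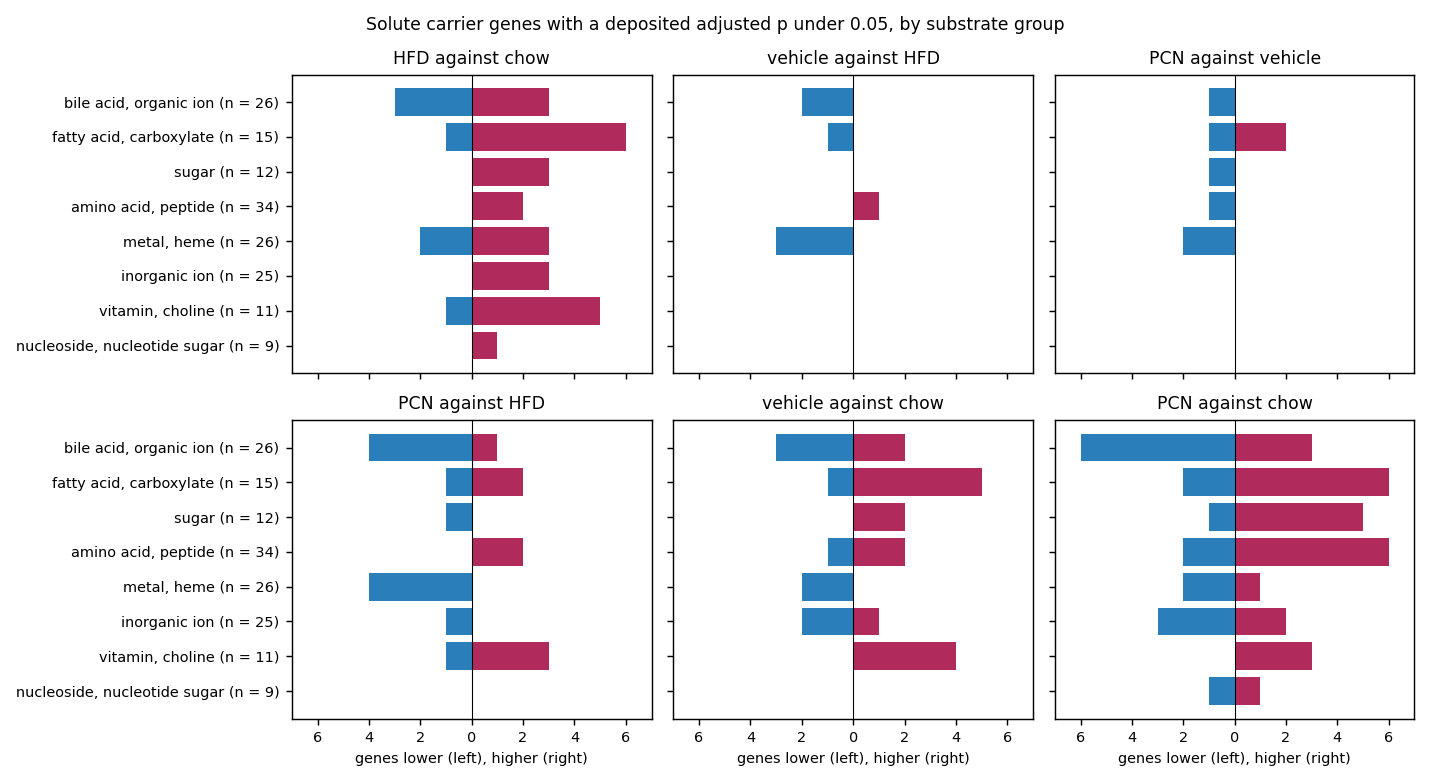
Number of solute carrier genes with a deposited adjusted p under 0.05 in each of the 6 comparisons, by substrate group, with genes lower in the first-named group drawn to the left and genes higher to the right. Between HFD and chow, 6 of 15 fatty acid and carboxylate carriers and 5 of 11 vitamin and choline carriers rose. Of 34 amino acid and peptide carriers 2 rose, and of all genes at the floor 5.41% were called higher there. Between PCN and uninjected HFD, 4 of 26 metal and heme carriers fell, where 2.45% of genes at the floor were called lower. Of these 4, 3 were also called lower in vehicle than in uninjected HFD. The 4 genes that are not carriers and 1 of another family are not drawn.

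**Figure D2:**
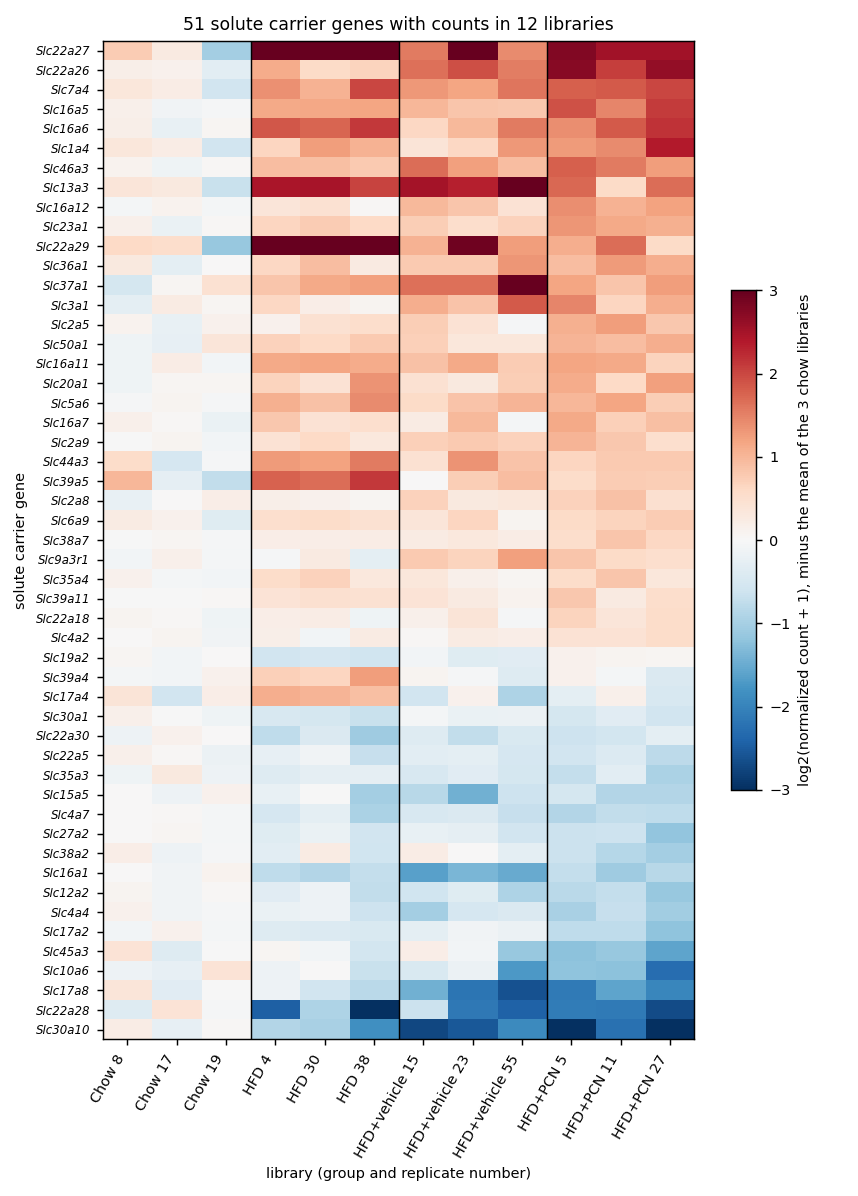
Values of the 51 members with counts in 12 libraries, as log2(normalized count + 1) minus the mean of the 3 chow libraries, one column per library and 1 row per gene, sorted by the PCN values, with values beyond 3 drawn at 3. Slc22a27 and Slc22a29 are darkest in the 3 uninjected HFD libraries and in vehicle replicate 23. Slc30a10 has its lowest mean in PCN, where its libraries overlap those of vehicle.

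Per kilobase of exon, the most abundant member was Slc27a2, a fatty acid carrier and very long-chain acyl-CoA synthetase of peroxisomes, at 9833 normalized counts per kb over the HFD and vehicle libraries. Among those that followed were Slc38a4 (4882) and Slc38a3 (4166), sodium-coupled neutral amino acid carriers. Slc10a1, the sodium-dependent carrier that returns bile acids from blood to hepatocyte, stood at 3722 and Slc7a2, a carrier of cationic amino acids, at 2466. The level of Slc2a2, the high-capacity glucose carrier of hepatocytes, was 1487. These abundant carriers were for the most part not called. Slc10a1 had 8317 ± 1972 normalized counts in HFD and 8051 ± 2554 in vehicle (mean ± SD, n = 3). For Slc38a4 the means were 19918 ± 3359.8 and 21683 ± 6825. None of Slc10a1, Slc38a4, Slc38a3 and Slc7a2 had an adjusted p under 0.05 in any deposited comparison, and their chow and PCN counts were not analysed here.

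The 26 carriers of bile acids and organic ions held the largest diet change of the set, in a row of closely related genes on chromosome 19. Between HFD and chow, 3 of the 26 rose (Slc22a27, Slc22a29 and Slc17a4) and 3 fell (Slc22a28, Slc22a30 and Slc17a2). The shares of all genes at the floor were 5.41% higher and 4.03% lower. Slc22a26, Slc22a27, Slc22a28, Slc22a29 and Slc22a30 are rodent genes of the organic anion carrier family and lie in that order between 7781041 and 8405111 on chromosome 19 of GRCm38, all on the minus strand. Their longest protein-coding transcripts were 95.8% identical between Slc22a27 and Slc22a29, 89.9% between Slc22a28 and Slc22a30 and 69.8% to 73.4% between Slc22a26 and the other 4. How the authors' counting divided reads among such copies is not given in the sources used here, so the split of reads among Slc22a27 to Slc22a30 is uncertain.

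Upstream of the genes the likeness had another order. In the 250 bases before the start of each gene (RefSeq, GRCm38.p6), Slc22a28 and Slc22a30 were 97.5% identical, Slc22a28 and Slc22a29 81.7%, and Slc22a29 and Slc22a30 77.8%. These are again shares of aligned bases, which numbered 244, 213 and 221 in that order. Slc22a27 was 58.4% to 63.7% identical with the other 4, although its transcript was the closest to that of Slc22a29. The 3 like windows are shown because Slc22a29 rose where Slc22a28 and Slc22a30 fell. They span chr19:8131983-8132232 for Slc22a28, chr19:8218901-8219150 for Slc22a29 and chr19:8405112-8405355 for Slc22a30, where exon bases were trimmed. Each is written 5′ to 3′ on the minus strand, and capitals mark the longest stretch of 16 bases that all 3 share.
Slc22a28: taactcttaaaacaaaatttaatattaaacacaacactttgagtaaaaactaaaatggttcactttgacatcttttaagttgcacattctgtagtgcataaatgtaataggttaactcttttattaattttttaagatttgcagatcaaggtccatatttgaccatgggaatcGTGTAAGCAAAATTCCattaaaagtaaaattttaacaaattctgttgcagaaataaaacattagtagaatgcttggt
Slc22a29: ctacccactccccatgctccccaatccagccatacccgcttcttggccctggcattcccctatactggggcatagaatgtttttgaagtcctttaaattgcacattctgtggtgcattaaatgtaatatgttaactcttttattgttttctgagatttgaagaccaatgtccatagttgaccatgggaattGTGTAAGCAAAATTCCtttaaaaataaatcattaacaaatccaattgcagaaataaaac
Slc22a30: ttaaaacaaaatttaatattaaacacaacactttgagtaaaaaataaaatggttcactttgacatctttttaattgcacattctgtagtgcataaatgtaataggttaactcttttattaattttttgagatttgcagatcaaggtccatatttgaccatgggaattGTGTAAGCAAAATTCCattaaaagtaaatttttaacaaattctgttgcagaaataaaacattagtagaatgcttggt

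Slc22a27 (chromosome 19, 7864388 to 7966027) had 37.1, 26 and 10.1 in chow, 334, 211 and 324 in uninjected high-fat diet, 65.5, 261 and 59.2 in vehicle and 155, 129 and 128 in PCN. Every uninjected HFD library lay above every chow library, and vehicle replicate 23 lay among the uninjected libraries while replicates 15 and 55 did not. The fold between HFD and chow was 11.9 (adjusted p = 2.08e-20 in the authors' deposited table), the largest of any member there. With PCN the gene was 2.11-fold lower than in uninjected HFD and 5.62-fold higher than in chow. Its mean was 137 in PCN and 129 in vehicle. Its neighbour Slc22a29 (chromosome 19, 8160165 to 8218900) had 24.7, 23.4 and 6.76 in chow, 147, 136 and 134 in uninjected high-fat diet, 33.7, 127 and 39.4 in vehicle and 35.1, 53.2 and 24.4 in PCN. It rose 7.59-fold between HFD and chow (adjusted p = 1.18e-14 in the authors' deposited table) and was 3.70-fold lower with PCN than in uninjected HFD. Vehicle replicate 23 was again close to the uninjected libraries, just below them. Neither gene was called between vehicle and uninjected HFD or between PCN and vehicle.

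Slc22a28 had 71.5, 125 and 91.3 in chow, 16.2, 49 and 4.53 in uninjected high-fat diet, 59.7, 20.2 and 16.6 in vehicle and 21.2, 20.6 and 13.8 in PCN. It fell 4.12-fold between HFD and chow (adjusted p = 0.00965 in the authors' deposited table), a size that depended on single libraries. The fold was 9.26 without HFD replicate 30 and 2.94 without HFD replicate 38, which held 2 raw reads of the gene. Against chow it was 2.98-fold lower with vehicle (5.21-fold without vehicle replicate 15 and 2.40-fold without vehicle replicate 55) and 5.18-fold lower with PCN. Slc22a30, at the far end of the row, had 1188, 1452 and 1344 in chow, 781, 979 and 627 in uninjected high-fat diet, 1018, 787 and 964 in vehicle and 863, 909 and 1077 in PCN. Its fall between HFD and chow was 1.67-fold, with adjusted p = 0.00413 in the authors' deposited table. In vehicle and PCN it was 1.44- and 1.40-fold below chow. Slc22a26, the most diverged copy, had 35.3, 33.8 and 24.8 in chow, 67.8, 46.5 and 49.8 in uninjected high-fat diet, 100.2, 121 and 92.4 in vehicle and 212, 134 and 198 in PCN. Its 3 PCN libraries were the highest and its 3 chow libraries the lowest. It was 5.79-fold higher in PCN than in chow, 3.32-fold higher in PCN than in uninjected HFD and 3.34-fold higher in vehicle than in chow, and it was not called between PCN and vehicle or between HFD and chow.

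**Figure D3:**
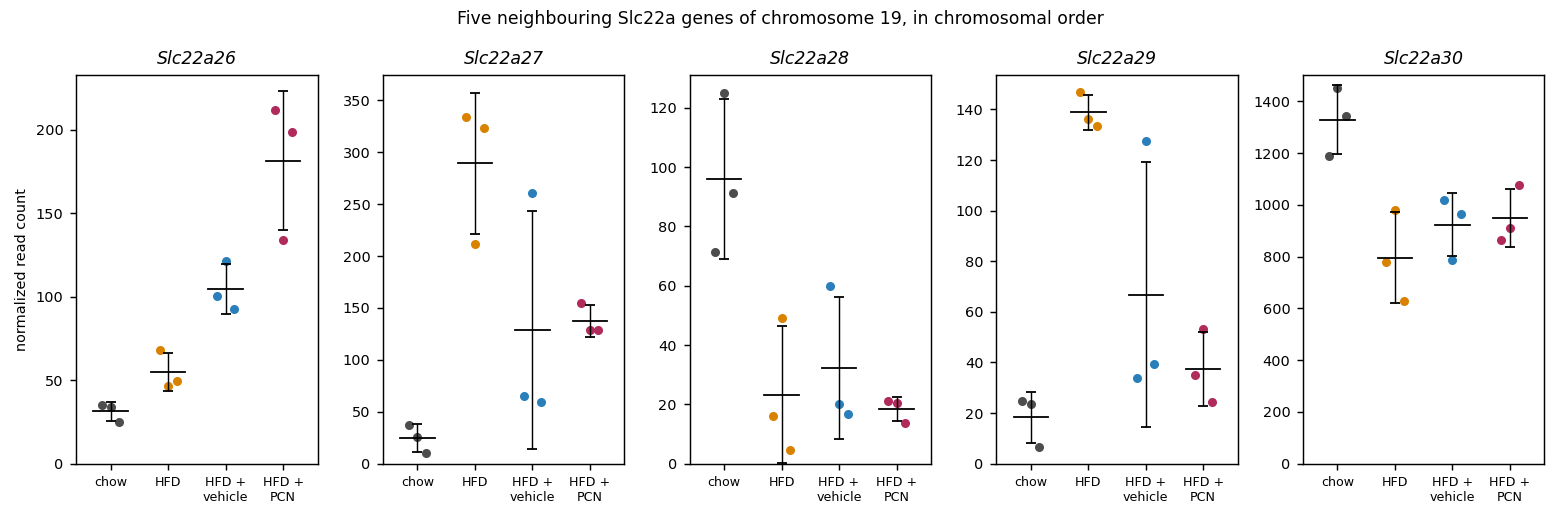
Normalized read counts of 5 neighbouring Slc22a genes on chromosome 19, with a panel per gene, a dot per library, and bars for mean ± SD (n = 3) in chow, HFD, HFD with vehicle and HFD with PCN. Slc22a27 and Slc22a29 are high in uninjected HFD, Slc22a28 and Slc22a30 are high in chow, and Slc22a26 is highest in PCN.

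The Slc17a genes carry organic anions, urate and phosphate, or glutamate into vesicles. Slc17a8 (chromosome 10, 89574020 to 89621253), known as a vesicular glutamate carrier of neurons, had 1124, 691 and 868 in chow, 785, 585 and 502 in uninjected high-fat diet, 325, 190.1 and 142 in vehicle and 199, 290.3 and 226 in PCN. Both injected groups lay below both uninjected groups with no overlap. The fall was 4.08-fold between vehicle and chow (adjusted p = 3.26e-09 in the authors' deposited table), 3.75-fold between PCN and chow and 2.62-fold between PCN and uninjected HFD. HFD and chow were not called apart for this gene. Slc17a4 (chromosome 13, 23895890 to 23915009), a carrier of urate and thyroid hormone, had 604, 311 and 535 in chow, 997, 938 and 869 in uninjected high-fat diet, 312, 507 and 245 in vehicle and 381, 515 and 333 in PCN. The 3 uninjected HFD libraries stood above the other 9. Slc17a4 rose 1.93-fold between HFD and chow (adjusted p = 0.00228 in the authors' deposited table), and PCN was 2.28-fold below uninjected HFD. Slc17a2 had 3061, 3510.1 and 3117 in chow, 2482, 2413 and 2363 in uninjected high-fat diet, 2624, 2995 and 2853 in vehicle and 1901, 1898 and 1401 in PCN. It fell 1.33-fold between HFD and chow and 1.63-fold between PCN and vehicle (adjusted p = 0.0118 in the authors' deposited table). The PCN libraries of Slc17a2 were below those of all other groups.

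Among the remaining genes of the group, Slc10a2, the bile acid carrier better known from ileum and bile duct cells, had 399, 621 and 236 in chow, 761, 881 and 568 in uninjected high-fat diet and 693, 857 and 1576 in vehicle. It was 2.49-fold higher in vehicle than in chow, and vehicle replicate 55 was the highest library. Slc10a6, a carrier of sulfated steroids, was 3.07-fold lower in PCN than in chow. It is 1 of the 3 members that reached the floor through uninjected HFD only, at 30.2 ± 8.04 counts in chow and 9.86 ± 3.95 in PCN. Slc22a5, which takes up carnitine, fell 1.51-fold between PCN and chow, and Slc22a18 rose 1.44-fold. Slc22a7, an organic anion carrier of hepatocytes, ranged widely, at 149, 338 and 34 in uninjected high-fat diet and 855, 229.5 and 454 in vehicle, and was not called. Slc17a1 and Slc47a1, an exporter of organic cations, had HFD and vehicle means of 248 ± 28 against 195 ± 39.2 and 2568 ± 86.2 against 2202 ± 390.1, with overlapping libraries.

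Of 15 carriers of fatty acids and carboxylates, 6 rose between HFD and chow (Slc13a3, Slc16a5, Slc16a6, Slc16a7, Slc16a11 and Slc16a13) and 1 fell (Slc16a1). Beside these stood 5.41% of all genes at the floor called higher and 4.03% called lower. The Slc16a family moves lactate, pyruvate, ketone bodies and related acids together with a proton, or other small molecules. Slc16a1 (chromosome 3, 104638668 to 104658462), which carries lactate, pyruvate and ketone bodies, had 2131, 1968 and 2259 in chow, 1250.1, 1149 and 1283 in uninjected high-fat diet, 678, 819 and 744 in vehicle and 1284, 1015 and 1197 in PCN. The chow libraries were the highest and the vehicle libraries the lowest, and neither overlapped any other group. It fell 1.73-fold between HFD and chow (adjusted p = 9.49e-09 in the authors' deposited table) and 2.84-fold between vehicle and chow. Between PCN and vehicle it rose 1.56-fold (adjusted p = 0.0226 in the authors' deposited table), to a level that overlapped uninjected HFD. Slc16a1 in PCN was 1.82-fold below chow.

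Slc16a5 (chromosome 11, 115462474 to 115474398), a relative that carries drugs such as bumetanide, had 480.3, 401 and 423 in chow, 950.5, 964 and 980.1 in uninjected high-fat diet, 861, 773 and 754 in vehicle and 1639, 1199 and 1851 in PCN. No 2 of its 4 groups overlapped. It rose 2.22-fold between HFD and chow (adjusted p = 9.1e-16 in the authors' deposited table), 1.96-fold between PCN and vehicle (adjusted p = 0.000759 there) and 3.60-fold between PCN and chow. Slc16a6, which exports ketone bodies from the liver, had 74.2, 56 and 68.8 in chow, 242, 222 and 292 in uninjected high-fat diet, 102, 130.4 and 197 in vehicle and 174, 237 and 299 in PCN. Chow was the lowest group throughout, and the fold between HFD and chow was 3.80 (adjusted p = 7.38e-16 in the authors' deposited table). The exons of Slc16a6 overlap those of Amz2 on the other strand over 21.5% of their length, and whether counting used strand is not given in the sources used here. For Slc16a11 the values were 86.5, 111 and 89.1 in chow, 209, 216 and 206 in uninjected high-fat diet, 176, 209 and 162 in vehicle and 217, 209.6 and 151 in PCN, and each of the 9 HFD-fed libraries lay above the 3 chow libraries (2.21-fold in uninjected HFD). Slc16a12, a creatine carrier, had 1656, 1878 and 1673 in chow, 2237, 2361 and 1784 in uninjected high-fat diet, 3418, 3074 and 2349.6 in vehicle and 4582, 3569 and 3985 in PCN. It was 1.90-fold higher in PCN than in uninjected HFD (adjusted p = 1.37e-05 in the authors' deposited table) and 2.33-fold higher than in chow. Slc16a12 was not called between PCN and vehicle. Slc16a7, a high-affinity carrier of pyruvate and lactate, had 2703, 2494 and 2117 in chow, 4262, 3298 and 3461 in uninjected high-fat diet, 2881, 4773 and 2343 in vehicle and 5347, 4006 and 4542 in PCN, and rose 1.51-fold between HFD and chow and 1.90-fold between PCN and chow. Slc16a13, at 27 ± 10.8 counts in chow and 68.9 ± 11.3 in HFD, rose 2.55-fold.

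Slc13a3 (chromosome 2, 165405028 to 165473230), which takes up succinate and other dicarboxylates with sodium, had 177, 170.5 and 86.8 in chow, 760.2, 767 and 561 in uninjected high-fat diet, 783, 703 and 1330.5 in vehicle and 459, 206 and 443 in PCN. All 9 libraries of HFD-fed mice lay above the 3 chow libraries, and the PCN libraries lay below all libraries of the other HFD-fed groups. The rise was 4.80-fold between HFD and chow and 6.48-fold between vehicle and chow (adjusted p = 6.21e-15 and 1.92e-15 in the authors' deposited tables). Between PCN and vehicle Slc13a3 fell 2.54-fold (adjusted p = 0.00922 in the authors' deposited table). Slc27a2, the most abundant member per kilobase, had 47289 ± 2109.6 counts in chow, 36519.7 ± 4764 in HFD, 37304 ± 4759 in vehicle and 27147 ± 5558 in PCN. It was called only between PCN and chow, where it was 1.74-fold lower. Slc27a4, another fatty acid carrier with acyl-CoA synthetase activity, was 1.43-fold lower in PCN than in uninjected HFD (754 ± 21 against 1080.3 ± 129.8). Between PCN and vehicle Slc27a4 was not called. Slc16a10, a carrier of aromatic amino acids and thyroid hormone, was not called and had 2029 ± 443 counts in HFD and 2475 ± 138 in vehicle.

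**Figure D4:**
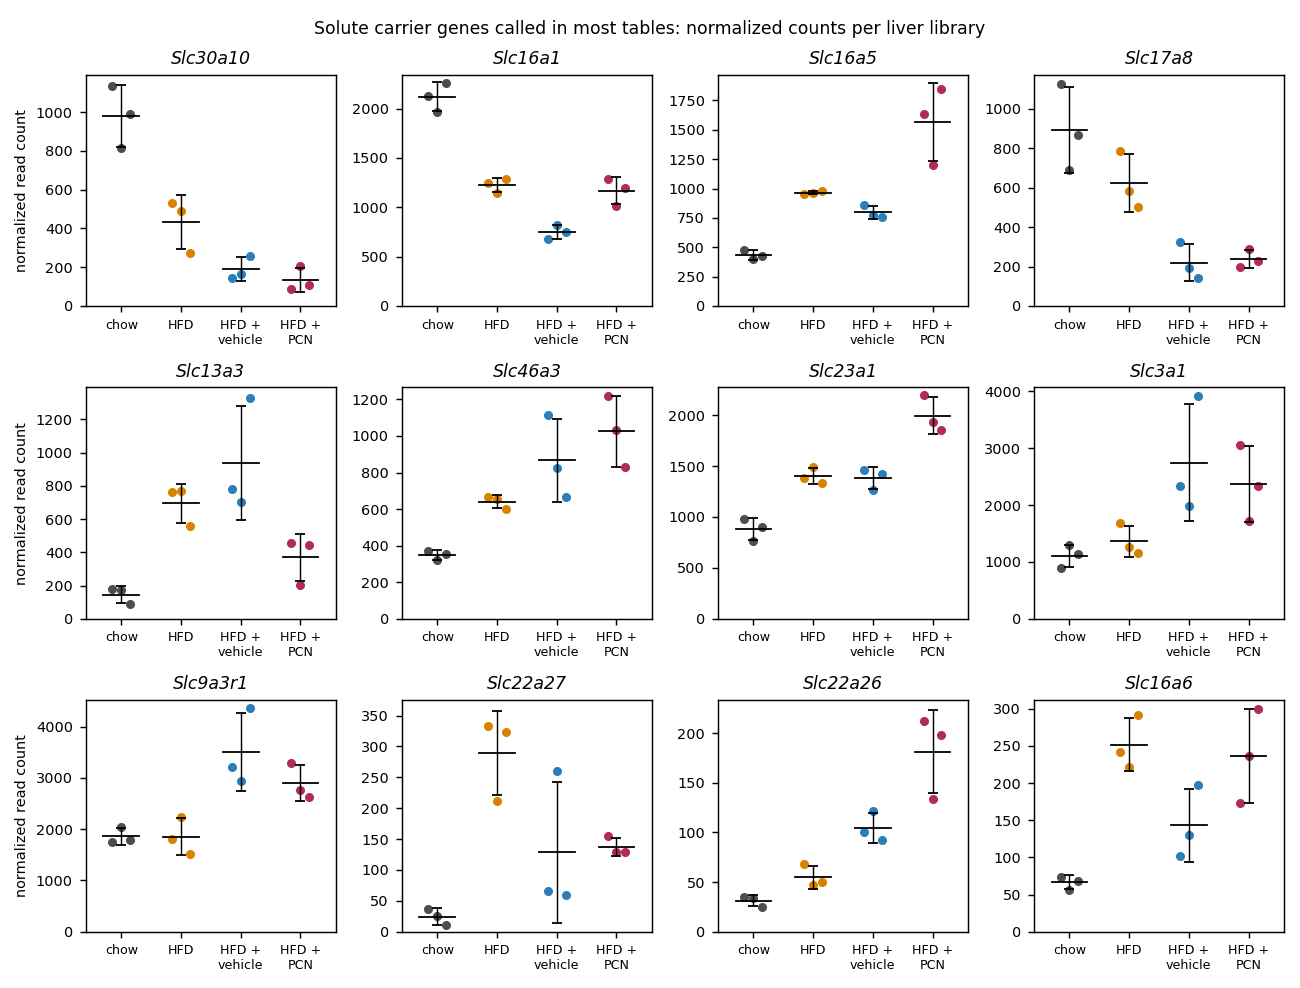
Normalized read counts of 12 members in the order of the number of deposited tables that call them and then of their smallest adjusted p, with a dot per library and bars for mean ± SD (n = 3) in chow, HFD, HFD with vehicle and HFD with PCN. Slc30a10, Slc16a1 and Slc17a8 are highest in chow, Slc16a5, Slc23a1 and Slc22a26 are highest in PCN, and Slc13a3 is highest in the 2 HFD groups without PCN.

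Of 26 metal and heme carriers, the importers Slc39a4, Slc39a5 and Slc39a11 rose between HFD and chow and the exporters Slc30a1 and Slc30a10 fell. The other 21 did not pass the test, and of all genes at the floor 5.41% were called higher there and 4.03% lower. The Slc39a family brings zinc and other divalent metals into the cytosol, and the Slc30a family takes them out. Slc30a10 (chromosome 1, 185454848 to 185468762), the manganese exporter whose loss causes manganese overload, had 1135, 813 and 989.7 in chow, 530.4, 490.4 and 272 in uninjected high-fat diet, 145, 167 and 259 in vehicle and 87.4, 206 and 109 in PCN. The 3 chow libraries were the highest, and vehicle and PCN overlapped. It fell 2.27-fold between HFD and chow (adjusted p = 0.0002 in the authors' deposited table), 5.14-fold between vehicle and chow (adjusted p = 1.58e-19) and 7.29-fold between PCN and chow (adjusted p = 1.26e-24). PCN was 3.21-fold below uninjected HFD. Its exons overlap the noncoding gene Gm2061 on the other strand over 9.1% of their length. Slc30a1 (chromosome 1, 191906767 to 191913247), the zinc exporter of the plasma membrane, had 1339, 1199 and 1111 in chow, 869.5, 845 and 761 in uninjected high-fat diet, 1164, 1057 and 1073 in vehicle and 840.5, 955 and 815 in PCN. It fell 1.47-fold between HFD and chow and 1.40-fold between PCN and chow (adjusted p = 0.00189 and 0.016 in the authors' deposited tables). The vehicle libraries of Slc30a1 overlapped chow and were not called against it.

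Because both exporters fell with diet, the bases upstream of their starts are shown. Metal response elements, bound by the zinc-sensing factor MTF-1, have the core TGCACNC or TGCGCNC. Both strands of the 250 bases before the start were searched in 32851 RefSeq promoter windows of mouse. TGCACNC was found in 10.4% and TGCGCNC in 12.5% of these, and either of them in 21.4%. Of the 171 windows that belong to members, 29.2% held either. Of the 163 members, 122 had a window in that table. The windows below are chr1:191906531-191906766 for Slc30a1 and chr1:185454598-185454847 for Slc30a10 (GRCm38.p6, plus strand, exon bases trimmed), and capitals mark the cores. Slc30a1 held 1, which was TGCACNC, and Slc30a10 held 3 of TGCGCNC, of which a pair overlap on opposite strands. A match of letters is a description and not a bound site.
Slc30a1: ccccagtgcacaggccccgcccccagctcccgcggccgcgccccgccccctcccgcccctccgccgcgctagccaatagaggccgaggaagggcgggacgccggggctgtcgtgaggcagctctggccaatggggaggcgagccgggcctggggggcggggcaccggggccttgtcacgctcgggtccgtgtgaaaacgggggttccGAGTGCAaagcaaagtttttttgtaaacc
Slc30a10: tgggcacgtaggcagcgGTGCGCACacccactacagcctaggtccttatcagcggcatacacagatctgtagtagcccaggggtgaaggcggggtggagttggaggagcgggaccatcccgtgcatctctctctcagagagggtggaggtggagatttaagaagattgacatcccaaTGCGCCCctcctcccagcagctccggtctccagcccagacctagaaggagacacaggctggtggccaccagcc

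Slc39a4 (chromosome 15, 76612383 to 76617384), the zinc importer that is lost in acrodermatitis enteropathica, had 352, 349 and 402 in chow, 608, 575 and 883 in uninjected high-fat diet, 389, 359 and 280.2 in vehicle and 401, 354 and 271 in PCN. The 3 uninjected HFD libraries stood above the other 9, which overlapped. It rose 1.87-fold between HFD and chow (adjusted p = 0.00041 in the authors' deposited table), and PCN was 2.01-fold below uninjected HFD. Slc39a5 (chromosome 10, 128395931 to 128401229), a zinc importer that faces the blood, was likewise highest in the 3 uninjected HFD libraries, at 54.7, 22.1 and 15.8 in chow, 94.1, 88.1 and 120.0 in uninjected high-fat diet, 27, 45.5 and 51.9 in vehicle and 39.5, 46.4 and 45.6 in PCN. It rose 3.26-fold between HFD and chow (adjusted p = 0.00307 in the authors' deposited table), or 5.32-fold without chow replicate 8 and 2.62-fold without chow replicate 19. Slc39a5 was 2.30-fold lower in PCN than in uninjected HFD. Slc39a11 rose 1.36-fold between HFD and chow and 1.47-fold between PCN and chow, at 425 ± 11.4, 580.2 ± 16.3 and 624 ± 119 in chow, HFD and PCN.

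Slc39a14, an importer of zinc, manganese and iron that is not bound to transferrin, was the most abundant of the metal carriers per kilobase, at 915 counts per kb. Its libraries gave 8021, 10226 and 7182 in uninjected high-fat diet, 9896, 7759.7 and 14866 in vehicle and 4932, 6304 and 5878 in PCN. It fell 1.90-fold between PCN and vehicle (adjusted p = 0.0205 in the authors' deposited table), and all 3 PCN libraries were below the 6 others. Slc41a3, of the magnesium carrier family, had 191, 125 and 99.6 in uninjected high-fat diet, 119, 128 and 141 in vehicle and 71.8, 70.4 and 44.6 in PCN. It was 2.08-fold lower in PCN than in vehicle and 2.22-fold lower than in uninjected HFD. Slc39a8, an importer of manganese and zinc, had 751, 763 and 782 in chow, 629, 643 and 462 in uninjected high-fat diet and 556, 533 and 377 in vehicle, and was 1.57-fold lower in vehicle than in chow. The iron exporter Slc40a1, which macrophages also express, was not called and had 3067 ± 29.2 counts in HFD and 3060.3 ± 651 in vehicle. Slc11a2, an importer of ferrous iron, was not called either (588 ± 59.5 and 748 ± 207).

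Of 12 sugar carriers, Slc2a2, Slc2a9 and Slc37a1 rose between HFD and chow and 0 fell. For scale, 5.41% of genes at the floor were called higher there and 4.03% lower. Slc2a2 (chromosome 3, 28697903 to 28731359) had 6733, 6019 and 6860.4 in chow, 11588, 10034 and 9819 in uninjected high-fat diet and 7918, 7769 and 4232 in vehicle. The 3 HFD libraries were above all chow and vehicle libraries. The fold between HFD and chow was 1.60 (adjusted p = 4.47e-06 in the authors' deposited table). Slc2a9, which carries urate, had 715, 764 and 684 in chow, 969, 1096 and 892 in uninjected high-fat diet, 1185, 1247 and 1169.6 in vehicle and 1459, 1256 and 1019 in PCN. It rose 1.37-fold between HFD and chow, 1.66-fold between vehicle and chow and 1.73-fold between PCN and chow, and every HFD-fed library was above every chow library. Slc37a1, an exchanger of glucose 6-phosphate and phosphate, had 34.4, 52.1 and 68.8 in chow, 89.1, 111 and 118 in uninjected high-fat diet, 159, 159 and 527 in vehicle and 115, 89.3 and 119.9 in PCN. Vehicle replicate 55 stood far above every other library. The vehicle fold against chow was 5.44 with it and 3.07 without it, and the fold between HFD and chow was 2.04. Slc37a4, the glucose 6-phosphate carrier of the endoplasmic reticulum that glucose release depends on, was not called (4312 ± 544 in HFD and 3608 ± 1039.9 in vehicle). Nor was Slc2a1 (161 ± 16.2 and 232 ± 86.9), the glucose carrier of red cells and many other cells.

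Slc45a3, a member of the sugar carrier family Slc45a, had 1377, 793 and 1038 in chow, 1079, 991 and 715 in uninjected high-fat diet, 1194, 984 and 473 in vehicle and 443, 474 and 350.1 in PCN. It was 2.09-fold lower in PCN than in vehicle, 2.20-fold lower than in uninjected HFD and 2.53-fold lower than in chow (adjusted p = 0.0453, 1.19e-05 and 4.52e-08 in the authors' deposited tables). Vehicle replicate 55 lay within the PCN range, so the PCN and vehicle libraries overlapped, the only such case among the 8 members called between them. Slc2a5, the fructose carrier, rose 2.08-fold between PCN and chow, from 77.2 ± 10.5 to 160.1 ± 24. Slc2a8 and Slc50a1, carriers of glucose in inner membranes, rose 1.60- and 2.0-fold in that comparison.

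The 34 amino acid and peptide carriers were the largest group by number. Between HFD and chow 2 of them rose, Slc1a4 and Slc6a8, 0 fell and 32 did not pass the test. Among all genes at the floor, 5.41% were called higher and 4.03% lower. Slc1a4, a carrier of small neutral amino acids, had 78.6, 72.9 and 41.7 in chow, 97.2, 149 and 129 in uninjected high-fat diet, 80.9, 96 and 155 in vehicle and 153, 167 and 327 in PCN. It rose 1.94-fold between HFD and chow and 3.35-fold between PCN and chow, and PCN replicate 27 was far above the others. Slc6a8, the creatine carrier, rose 1.78-fold, from 92.5 ± 7.78 to 165 ± 49. Slc3a1 (chromosome 17, 85028347 to 85064243), the chain that partners a carrier of cystine and dibasic amino acids, had 901, 1292 and 1133 in chow, 1678, 1263 and 1159 in uninjected high-fat diet, 2335, 1993 and 3921 in vehicle and 3051, 1714 and 2339 in PCN. Both injected groups were above both uninjected groups without overlap. The rise was 2.48-fold between vehicle and chow, 2.14-fold between PCN and chow and 1.73-fold between PCN and uninjected HFD (adjusted p = 4.35e-05, 2.28e-05 and 0.0343 in the authors' deposited tables). Its exons overlap those of Prepl on the other strand over 26.5% of their length.

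Slc38a2, the amino acid carrier that responds to amino acid shortage, had 7813, 6088 and 6627 in chow, 5479, 8119 and 4461 in uninjected high-fat diet, 7959, 6833 and 5521 in vehicle and 4379.9, 3753 and 3365 in PCN. The PCN libraries were below all others, and it fell 1.77-fold between PCN and vehicle (adjusted p = 0.00469 in the authors' deposited table). Slc36a1, which exports amino acids from lysosomes with protons, had 364, 241 and 299.8 in chow, 460.1, 567 and 359.9 in uninjected high-fat diet, 511, 516 and 740.0 in vehicle and 563, 723 and 631 in PCN. It was 1.95-fold higher in vehicle and 2.12-fold higher in PCN than in chow. Slc7a5, the light chain of a carrier of large neutral amino acids, rose 2.19-fold between PCN and uninjected HFD, from 34 ± 8.43 to 74.3 ± 18.2. Slc7a5 was not called between PCN and vehicle. Its heavy chain partner Slc3a2 was not called (565 ± 31.1 in HFD and 562 ± 43.7 in vehicle). Between PCN and chow, Slc7a4 (3.83-fold), Slc38a7 (1.59-fold) and Slc6a9, a glycine carrier (1.56-fold), rose as well. Slc15a5, of the peptide carrier family, fell 1.69-fold in that comparison and 1.92-fold between vehicle and chow. Exons of Slc6a9 and Slc7a4 overlap Ccdc24 and P2rx6 on the other strand over 27.8% and 13.3% of their length.

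Of 11 carriers of vitamins and choline, 5 rose between HFD and chow (Slc23a1, Slc23a2, Slc44a3, Slc46a3 and Slc5a6) and 1 fell (Slc19a2). Genes at the floor as a whole were called higher in 5.41% and lower in 4.03%. Slc46a3 (chromosome 5, 147878437 to 147894815), a lysosomal membrane carrier, had 373, 320.2 and 354 in chow, 665, 654 and 599.8 in uninjected high-fat diet, 1112, 824 and 666 in vehicle and 1217, 1032 and 829.6 in PCN. Chow was lowest, and each of the 9 HFD-fed libraries lay above it. The rise was 1.83-fold in HFD, 2.49-fold in vehicle and 2.94-fold in PCN against chow (adjusted p = 3.56e-08, 3.92e-07 and 3.23e-15 in the authors' deposited tables). Slc23a1, which takes up vitamin C with sodium, had 982, 768 and 901 in chow, 1385, 1486 and 1329 in uninjected high-fat diet, 1463, 1259.8 and 1424 in vehicle and 2200.3, 1929 and 1853 in PCN. It rose 1.58-fold between HFD and chow, 1.42-fold between PCN and uninjected HFD and 2.26-fold between PCN and chow. The PCN libraries of Slc23a1 were above all others, but the gene was not called between PCN and vehicle. The second vitamin C carrier, Slc23a2, rose 1.54-fold between HFD and chow and 1.75-fold between vehicle and chow.

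Slc5a6, the sodium-coupled carrier of biotin and pantothenate, had 186, 200.4 and 185 in chow, 398, 351 and 509 in uninjected high-fat diet, 286, 344 and 386 in vehicle and 378, 435 and 320.4 in PCN. It rose 2.20-fold between HFD and chow (adjusted p = 3.17e-07 in the authors' deposited table), and its exons overlap Atraid on the other strand over 9.9% of their length. Slc19a2, which takes up thiamine, had 2146, 1960.0 and 2084 in chow, 1386, 1453 and 1372 in uninjected high-fat diet, 1935, 1614 and 1639 in vehicle and 2263, 2176 and 2153 in PCN. It fell 1.47-fold between HFD and chow and was 1.57-fold higher in PCN than in uninjected HFD (adjusted p = 2.28e-05 and 1.71e-05 in the authors' deposited tables). The chow, vehicle and PCN libraries of Slc19a2 were all above the uninjected HFD libraries. It was not called between PCN and vehicle or between vehicle and uninjected HFD. Slc44a3, of the choline carrier-like family, rose 2.46-fold between HFD and chow, from 121 ± 45.1 to 296 ± 39.9, and was 1.53-fold lower in PCN than in HFD. Slc44a3 was not called between PCN and vehicle. Slc44a1, a choline carrier, and Slc46a1, which carries folate and heme, were not called and had HFD means of 1218 ± 42.1 and 668 ± 103 beside 1184 ± 114 and 747 ± 22.4 in vehicle.

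Of 25 carriers of inorganic ions, Slc20a1 and Slc26a2 were called higher in HFD than in chow in the authors' deposited table, as was Slc24a3, which is described apart, and 0 were called lower. The background over genes at the floor was 5.41% higher and 4.03% lower. Slc20a1, a sodium phosphate carrier, had 461, 524 and 529 in chow, 802, 685 and 1286 in uninjected high-fat diet, 696, 614 and 839 in vehicle and 1094, 766 and 1185 in PCN. It rose 1.83-fold between HFD and chow and 2.01-fold between PCN and chow, and chow was below all 9 other libraries. Slc26a2, which takes up sulfate, rose 1.48-fold, from 147 ± 6.42 to 219 ± 19.9. Slc24a3, an exchanger of sodium for calcium and potassium, was at 6.13 ± 1.52 counts in chow and 25.7 ± 12.6 in HFD (4.19-fold). It reached the floor only through uninjected HFD, the group in which it was high, so its call supports no count of the group. The sodium bicarbonate carrier Slc4a4 had 7716, 6490.5 and 6876 in chow, 6105, 6277 and 4588 in uninjected high-fat diet, 3469.8, 4965 and 5164 in vehicle and 3576, 4323 and 3376 in PCN. It was 1.55-fold lower in vehicle and 1.87-fold lower in PCN than in chow (adjusted p = 0.0236 and 1.19e-07 in the authors' deposited tables). Its relative Slc4a7 fell 1.45- and 1.74-fold in the same comparisons, and Slc12a2, which brings in sodium, potassium and chloride, fell 1.85-fold between PCN and chow. Slc4a2, an exchanger of chloride and bicarbonate, rose 1.38-fold between PCN and chow, and Slc12a9 rose 1.94-fold between vehicle and chow. The sulfate carrier Slc26a1 was not called (3331 ± 1014 in HFD and 3804 ± 897 in vehicle).

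Among 9 carriers of nucleosides and nucleotide sugars, Slc35a4 rose 1.44-fold between HFD and chow and 1.50-fold between PCN and chow. Slc35a3, which carries UDP-N-acetylglucosamine into the Golgi, fell 1.57-fold between PCN and chow. The nucleoside carrier Slc29a1 was not called (3200.3 ± 366 in HFD and 3319 ± 1243 in vehicle). The symbol rule also took in 4 genes that are not carriers: Slc9a3r1, Slc9a3r2, Slc7a6os and Slc2a4rg-ps. Slc9a3r1 encodes a scaffold that anchors carriers at the apical membrane, and had 1747, 2047 and 1789 in chow, 1808, 2237 and 1514 in uninjected high-fat diet, 3208, 2941 and 4368 in vehicle and 3298, 2753 and 2634 in PCN. Both injected groups lay above both uninjected groups. It was 1.88-fold higher in vehicle and 1.56-fold higher in PCN than in chow (adjusted p = 9.72e-05 and 0.000629 in the authors' deposited tables).

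Between PCN and its own vehicle, 4.91% of the members were called, beside 3.33% of all genes at the floor. The 2 members that rose were Slc16a1 and Slc16a5, and the 6 that fell were Slc13a3, Slc17a2, Slc38a2, Slc39a14, Slc41a3 and Slc45a3. At an adjusted p under 0.01 in the authors' deposited table, 3 of these 8 remained. Of the 21 members called between PCN and uninjected HFD, only Slc16a5, Slc41a3 and Slc45a3 were also called between PCN and vehicle. Of 26 other membrane transporters, which were the drug pumps, organic anion carriers and water channels of a list set beside the SLC genes, 5 rose and 1 fell between PCN and vehicle. Slco1a4, an uptake carrier of bile acids and drugs and a known target of the pregnane X receptor, rose 6.04-fold (adjusted p = 1.05e-09 in the authors' deposited table), and Aqp8, a water channel, rose 3.94-fold. The efflux pumps Abcb1a and Abcc3 rose 3.30- and 1.78-fold. The list of 26 had 3 genes that rose between HFD and chow (Abcb1a, Aqp8 and Cd36, 3.65-, 2.19- and 2.43-fold) and 1 that fell (Slco2a1, 2.71-fold).

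Markers of other liver cell types also differed between groups in the authors' deposited tables. Between HFD and chow, of 10 macrophage genes 5 rose (Adgre1, C1qa, C1qb, C1qc and Vsig4, 1.53- to 1.73-fold), of 10 stellate genes 4 rose (Col1a1 8.74-fold, Col3a1 5.49-fold, Col1a2 3.56-fold and Pdgfrb 1.58-fold), and of 6 cholangiocyte genes 2 rose (Spp1 4.10-fold and Krt23 2.85-fold). Of 8 endothelial genes 1 rose and 1 fell, of 7 measured hepatocyte genes 2 fell, and the adipocyte gene Fabp4 rose 3.77-fold. Between vehicle and uninjected HFD, 5 markers were called and all were lower with vehicle, namely the endothelial Lyve1 (2.38-fold) and Cdh5 (1.73-fold), the cholangiocyte gene Krt23 (4.41-fold), the erythroid Hbb-bs (1.69-fold) and Fabp4 (2.49-fold). Between PCN and uninjected HFD, Col1a1 and Col1a2 were 2.29- and 2.01-fold lower, Krt23 6.05-fold, Fabp4 2.48-fold, Alas2 1.91-fold and Lyve1 1.66-fold. The hepatocyte genes Pck1 and Ttr were lower in that comparison, Pck1 by 2.22-fold, and Serpina1a was 1.58-fold higher. Between PCN and chow, 4 of 7 hepatocyte genes fell (Pck1 3.62-fold, Alb 2.15-fold, Ttr 1.72-fold and Cps1 1.68-fold) and 4 of 10 stellate genes rose (Col1a1 3.82-fold, Acta2 3.28-fold, Col3a1 3.20-fold and Col1a2 1.77-fold). Krt19 (6.52-fold) and Cd68 (1.83-fold) were also higher in PCN than in chow, and Alas2, Sox9 and Fcgr2b were 2.24-, 2.16- and 1.53-fold lower. Between vehicle and chow, Spp1 was 3.00-fold higher and Alas2 1.50-fold lower. Between PCN and vehicle 0 markers were in the authors' list of called genes, and 0 of 8 leukocyte genes were called in any comparison. Summed macrophage counts were 6574 to 10663 in uninjected HFD libraries and 4682 to 6866 in vehicle libraries, and summed stellate counts 10164 to 13379 and 5651 to 10005. Cholangiocyte sums were 480 to 1077 and 359 to 815, endothelial sums 7204 to 7973 and 4517 to 6977, erythroid sums 6071 to 8792 and 4534 to 5295, leukocyte sums 452 to 799 and 391 to 581, and adipocyte sums 273 to 369 and 85.1 to 159. No measured marker was at 0, and chow and PCN sums were not analysed here. The part of these cells in the changes of solute carrier genes was not tested.

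The comparison of vehicle with uninjected HFD comes from the table whose counts chose the members, so it is given as a description. The median log2 ratio of the 163 members was -0.05, and that of all genes at the floor was 0.02. The libraries of the groups did not overlap for 30 members, 18.4%, against 19.8% of genes at the floor. Of the 30, 16 were higher and 14 lower with vehicle. The 8 members in the authors' list were Slc3a1 (2.01 times the uninjected mean), Slc9a3r1 (1.89), Slc16a1 (0.61), Slc39a4 (0.50), Slc30a10 (0.44), Slc39a5 (0.41), Slc17a4 (0.38) and Slc17a8 (0.35). With edgeR's quasi-likelihood test 0 members had an adjusted p under 0.05 and 23 had an unadjusted p under 0.05 (0.00726% and 12.5% of the genes it tested). The 10 members with the smallest edgeR p were these 8 without Slc3a1, joined by Slc22a26 (1.91 times), Slc30a1 (1.33) and Slc10a5 (1.41), an orphan of the bile acid carrier family. Slc30a1 had 825 ± 57.2 counts in uninjected HFD and 1098 ± 57.8 in vehicle, where Slc30a10 had 431 ± 139 and 191 ± 60.6.

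**Figure D5:**
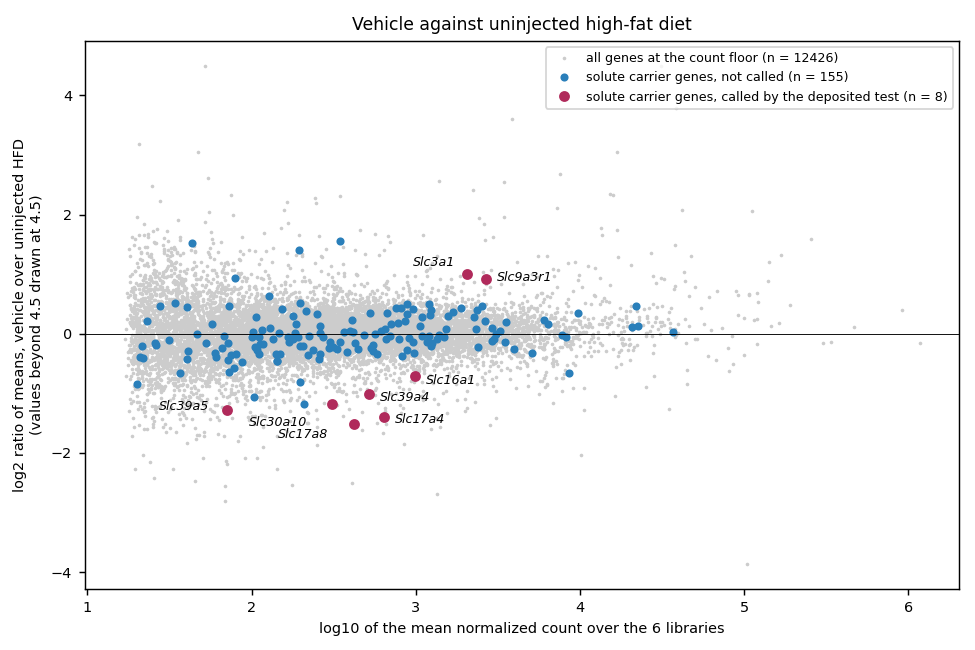
Log2 ratio of the mean normalized counts of vehicle over uninjected HFD (y axis) against the log10 mean normalized count over the 6 libraries (x axis), for 12426 genes at the count floor in grey and 163 members in colour, with the 8 that the authors called labelled. Members lie around 0 with a median of -0.05, and 6 of the 8 labelled genes lie below the line.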

How the data were processed

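RNA sequencing of 12 liver samples gave the values used here. The submitters' processing notes name HISAT2, HTSeq and DESeq2 as tools and GRCm38/mm10 as the genome build. Tool versions and the strand setting are not given in the sources used here. Each of the 6 tables that the authors deposited compares a pair of groups and gives raw counts per gene, a mean of normalized counts, and DESeq2 log2 fold changes with p-values and adjusted p-values. The table of vehicle against uninjected HFD held 26015 genes. The other 5 held only genes with a deposited adjusted p under 0.05 (442 to 2032 genes). Of 15768 values present in more than 1 table, 0 differed.

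Size factors were computed from the counts and the deposited means and put on a common scale (largest difference 0.52%). Totals of the libraries outside the complete table, estimated from size factors, ran from about 11400000 to 35300000, and such estimates were off by up to 16.3% where the total was known. Group values are means of normalized counts ± SD (n = 3). Depth limits the lowest members most: at the floor of 20 raw counts, counting error alone is large, and intervals were not computed since replicate spread is given.

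The complete table was tested with edgeR 4.0.16 in R 4.3.3 (TMM, expression filter, quasi-likelihood, Benjamini-Hochberg over 13775 genes), with DESeq2 1.42.0 as an alternative. For the other comparisons the calls are those of the authors' deposited DESeq2 tables, and the listed counts were tested again with edgeR, using the dispersion trend of the complete table and adjustment over the number of genes the authors tested (25101 to 25882, estimated from the deposited p-values). Tests were two-sided and the scripts were tested on simulated data. With 3 samples against 3, an exact permutation test of 1 gene cannot go below p = 0.10. Gene starts in the tables count from 0 and were raised by 1, after which 153 of 163 members had the coordinates of GENCODE M21, which also gave exon lengths. Promoter windows are from RefSeq (GRCm38.p6).

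The members, the substrate groups, the marker lists and the naming rule were chosen with earlier results of these data known. The rule gave values per library for up to 30 members, in the order of the number of tables that call them and then of their smallest adjusted p. It added the 10 smallest edgeR p between vehicle and HFD, a list of liver carriers given whether called or not, the 10 highest levels per kilobase and the members at the floor. Some called members beyond these are named as examples, chosen after their values were seen. Some members that this rule names are not reported here.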

Additional observations from a re-analysis of the deposited data

How the results depend on the processing

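Between vehicle and uninjected HFD, edgeR called 0 members (23 at an unadjusted p under 0.05). It called 9 without the filter on low counts (3 higher, 6 lower), a DESeq2 refit called 9 (3 higher, 6 lower) and the authors' deposited test 8 (2 higher, 6 lower), and all 8 were among each set of 9. Leaving out 1 library gave 0 to 1 (the 1 without vehicle replicate 23). At an adjusted p under 0.01 in the authors' deposited tables, 3 of 8 members stayed between PCN and vehicle and 11 of 21 between PCN and HFD, and, in an alternative chosen after seeing the data, 4 of 8 between vehicle and HFD. The counts of the 3 comparisons with chow stayed within 1.5 times. With the second edgeR test, leaving out 1 library in turn moved the count from 8 to between 0 and 3 for HFD against chow, from 4 to between 0 and 5 for PCN against HFD, from 6 to between 0 and 2 for vehicle against chow, and from 25 to between 8 and 20 for PCN against chow. It stayed at 0 for PCN against vehicle. These fits have fewer samples, and no other cause was tested. Of 141 ratios of group means behind the deposited calls, 0 of 846 that left out 1 library reversed. This could not have been otherwise where the libraries of the groups do not overlap. That was so for every call except Slc45a3 between PCN and vehicle, so the 0 says nothing of stability. In size, 4 moved by over 1.5 times, for Slc22a28, Slc37a1 and Slc39a5 as given above. Of the 141 deposited log2 changes, which are moderated toward 0, 0 reversed in sign. No paired analysis was possible because the replicate numbers differ between groups.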
